A study of Mus musculus with 10 samples.

Results

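The bone morphogenetic protein (BMP) pathway was represented by 34 genes, chosen by symbol as 8 ligands, 10 receptors and co-receptors, 6 SMADs and 10 extracellular or membrane-bound modulators. All 34 were found among the 23230 features of the expression matrix. They were followed through 10 RNAseq libraries in FPKM (fragment counts scaled to transcript length and to the size of the library), so that levels of different genes can be set side by side. AstroEGFR (3 libraries) were p16/p19 (*Ink4a/Arf*) KO astrocytes of C57BL/6 cerebral cortex at day P5, infected with a retroviral vector for human EGFRvIII, a constitutively active receptor. AstroEGFR_Zfp423 (3 libraries) were the same 3 astrocyte batches with an added vector overexpressing *Zfp423*, a zinc finger protein known to bind SMADs, and the vector is lentiviral in the labels and retroviral in the study's methods. PT (4 libraries) were glioma propagating cells cultured from tumours that arose when C57BL/6 cells of this kind were transplanted into CD1 Nude mice. Every group therefore carried the p16/p19 deletion and EGFRvIII, and all cultures were below passage 10. The 4 PT libraries go back to 3 astrocyte batches, PT1 and PT4 to batch 1 and each of PT2 and PT3 to the batch of its own number. AstroEGFR were grown with serum and PT without serum on laminin with growth factors, so medium and tumour passage cannot be told apart.

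BMPs are secreted ligands of the TGF-beta superfamily. They bind a complex of type I and type II serine/threonine kinase receptors, which phosphorylates the receptor SMADs, SMAD1, SMAD5 and SMAD9. These join the common partner SMAD4, enter the nucleus and raise the transcription of targets such as the *Id* genes. *Smad6* and *Smad7* encode inhibitory SMADs and are themselves induced by the pathway in many cells, so they close a feedback loop, while noggin, chordin, gremlin and follistatin trap ligands outside the cell. In the brain, BMP signalling is known for favouring the astrocyte fate over the oligodendrocyte fate.

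*Smad6* and *Bmp4* are the member genes with the lowest levels in PT relative to AstroEGFR among the SMADs and the ligands, and the 250 bases upstream of their annotated starts are shown for that reason. The sequences are those of RefSeq for the assembly GRCm38.p6, whereas the expression values were made on mm9. The *Smad6* window lies at chr9:64022060-64022309 on the minus strand, and the *Bmp4* window at chr14:46390670-46390919 on the minus strand. Capitals mark the letters GGGTGC, the reverse complement of GCACCC, which is part of the element bound by ZFP423 in other systems.
Smad6: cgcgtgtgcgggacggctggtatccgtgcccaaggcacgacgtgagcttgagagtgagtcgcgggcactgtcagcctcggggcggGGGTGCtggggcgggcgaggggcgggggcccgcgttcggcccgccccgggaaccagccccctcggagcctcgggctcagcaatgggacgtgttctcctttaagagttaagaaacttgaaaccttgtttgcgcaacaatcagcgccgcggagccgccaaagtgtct
Bmp4: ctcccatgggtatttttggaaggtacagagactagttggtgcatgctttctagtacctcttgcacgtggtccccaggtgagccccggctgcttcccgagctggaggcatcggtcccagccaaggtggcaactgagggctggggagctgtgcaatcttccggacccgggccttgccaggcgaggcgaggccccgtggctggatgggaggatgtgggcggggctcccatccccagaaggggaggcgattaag
Both strands of 29 such windows of 23 member genes were searched for GCACCC, for the GC-rich SMAD element GGCGCC and for the SMAD palindrome GTCTAGAC. GCACCC was found in 8 of the 29 windows, GGCGCC in 7 and GTCTAGAC in 0, against 13.3%, 9.59% and 0.167% of all 32851 windows of this length. The member windows had a GC content of 42.8% to 85.6%, which was not compared with that of all windows. *Bmpr1b*, *Smad5* and *Rgmb* had several windows each. An excess of these letters in the members was therefore not tested. The *Smad6* window held GCACCC, and the *Bmp4* window held none of these letters. A match is a run of letters and was not tested as a binding site.

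The libraries were checked against their labels. *Zfp423* was listed at 3.25 to 4.30 FPKM in AstroEGFR, at 15.7, 9.73 and 105 FPKM in the AstroEGFR_Zfp423 libraries of batches 1, 2 and 3, and at 0.641 to 2.78 FPKM in PT. The 8 astrocyte markers summed to 509 to 1048 FPKM in AstroEGFR, to 352 to 921 FPKM in PT and to 59.4 to 904 FPKM in AstroEGFR_Zfp423. The 8 fibroblast or meninges markers summed to 337, 533 and 5201 FPKM in AstroEGFR_1, AstroEGFR_2 and AstroEGFR_3, to 16.0 to 375 FPKM in PT and to 4567, 6314 and 235 FPKM in the 3 AstroEGFR_Zfp423 libraries, and no gene of this list was at 0 throughout a group. The 7 microglia markers summed to at most 9.04 FPKM in AstroEGFR and 2.21 FPKM in PT, but to 1126 and 605 FPKM in AstroEGFR_1_Zfp423 and AstroEGFR_2_Zfp423 and to 0.101 FPKM in AstroEGFR_3_Zfp423. The 7 markers of the oligodendrocyte lineage summed to 61.1 to 222 FPKM in AstroEGFR, 28.2 to 160 FPKM in AstroEGFR_Zfp423 and 130 to 1648 FPKM in PT. Markers of endothelium (6 genes) summed to at most 14.4 FPKM in any library, with *Cldn5* at 0 in all PT and all AstroEGFR_Zfp423 libraries, and 5 neuronal markers summed to 19.3 to 107 FPKM. The smallest values above 0 were higher in AstroEGFR_3 and PT3 than in the other libraries (1st percentile 0.0384 and 0.0299 FPKM against 0.0042 to 0.0071 FPKM), and the depth of the libraries is unknown. Small RNA and histone genes took 0.315% to 29.6% of the FPKM in AstroEGFR, 0.462% to 34.2% in PT and 35.4% to 54.8% in AstroEGFR_Zfp423. The cultures are bulk samples, in which fewer cells of a type and less RNA per cell cannot be told apart.

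The first comparison asked how the pathway differed between PT and the astrocytes they came from. *Smad6*, *Smad7* and *Bmp4* were called lower in PT, and no member was called higher. *Bmp2* and *Acvr2b* lay higher in every PT library than in any AstroEGFR library and did not pass the test. None of the receptors and of the signal-carrying SMADs *Smad1*, *Smad4* and *Smad5* passed the test. The follistatin family (*Fst*, *Fstl1* and *Fstl3*), *Bambi* and *Smad9* lay lower in every PT library than in any AstroEGFR library and did not pass either. In an alternative fit that set each PT against the batch it came from, *Fst* and *Fstl1* passed (limma adjusted p = 0.0432 and 0.0273). Differences were tested with limma on log2(FPKM + 1) over 12261 features whose mean reached 1 FPKM, with Benjamini-Hochberg adjustment, and on this scale the changes of weakly expressed genes are understated. Of the 34 members, 26 passed the filter, and 10 of these had a mean below 1 FPKM in 1 of the groups and so passed through the other. *Smad6*, *Bmp4*, *Bmp6*, *Fst*, *Fstl3*, *Grem1* and *Smad9* passed through AstroEGFR, and *Acvr2b*, *Bmp2* and *Bmp7* through PT. The counts that follow include these genes, the called *Smad6* and *Bmp4* among them. The members were also chosen with earlier results of these data known, so their counts, here and below, are a description. *Acvrl1*, *Bmp3*, *Bmp5*, *Bmp8a*, *Bmp8b*, *Bmpr1b*, *Eng* and *Nog* did not pass. At an adjusted p below 0.05, 3 members were lower in PT and 0 higher, where 0.922% of all features tested were lower and 0.318% higher. At an unadjusted p below 0.05 there were 8 members, all lower, or 30.8% of those tested, against 13.6% of all features in either direction. The PT libraries lay wholly below the AstroEGFR libraries for 8 members (30.8%, against 7.81% of all features) and wholly above them for 2 (7.69%, against 6.95%). The median difference was -0.62 over the members and 0.03 over all features, on the log2 scale.

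**Figure D1:**
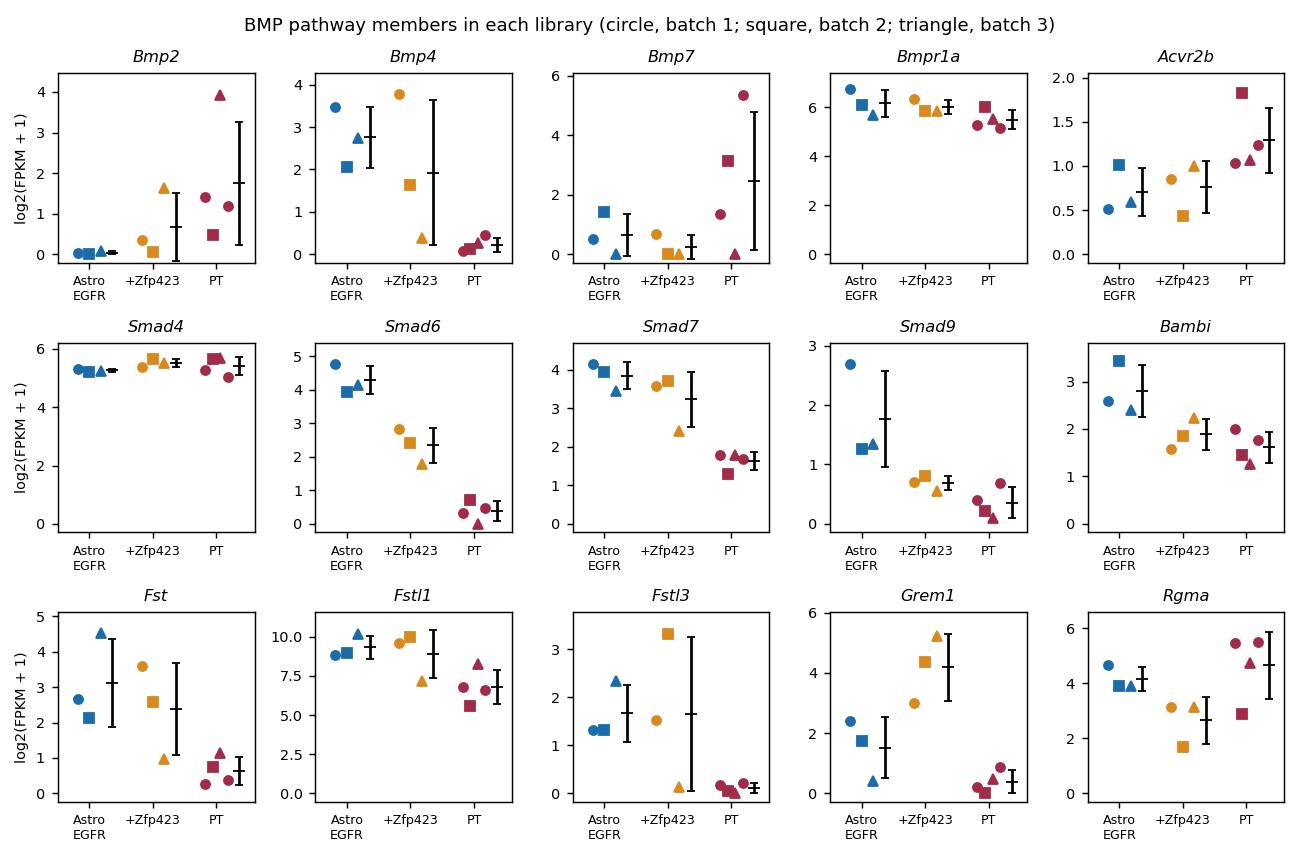
Level of 15 BMP pathway members on the log2(FPKM + 1) scale in each of the 10 libraries, grouped as AstroEGFR, AstroEGFR_Zfp423 (+Zfp423) and PT, with a symbol for the astrocyte batch and the group mean ± SD as a bar. *Smad6* fell from 14.4 to 26.3 FPKM in AstroEGFR to at most 0.621 FPKM in PT, while *Smad4* stayed between 32.1 and 50.1 FPKM in all libraries.

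Among the ligands, *Bmp4*, which drives astroglial differentiation of neural precursors, was listed at 10.1, 3.14 and 5.69 FPKM in AstroEGFR_1, AstroEGFR_2 and AstroEGFR_3. In PT1 to PT4 it was listed at 0.0606, 0.0863, 0.195 and 0.364 FPKM. The groups did not overlap, and the lowest AstroEGFR library was above the highest PT library. The mean of AstroEGFR was 35.8-fold that of PT, and on the log2 scale the level went from 2.76 ± 0.71 (SD, n = 3) to 0.23 ± 0.16 (SD, n = 4), or -2.53 (SE 0.40, adjusted p = 0.0324 by limma). This call was lost in 10 of 16 alternative analyses, in which the adjusted p ranged from 0.0212 to 0.17, among them each analysis without AstroEGFR_1, AstroEGFR_3 or any of the PT libraries. An exact permutation test of the group labels, two-sided, gave p = 0.0286 for *Bmp4*, the smallest value that 3 against 4 libraries allow. That test takes the libraries as independent, although PT1 and PT4 share a batch, and with these averaged the limma adjusted p of *Bmp4* was 0.0833.

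*Bmp2* and *Bmp7* had the opposite sign. *Bmp2*, a close relative of *Bmp4*, was at 0.0186, 0.00684 and 0.0657 FPKM in AstroEGFR and, from PT1 to PT4, at 1.66, 0.381, 14.2 and 1.27 FPKM. Every PT library was above every AstroEGFR library, with PT3 far above the other PT. The mean of PT was 144-fold that of AstroEGFR, whose values were near 0. The difference of 1.70 (SE 0.78) did not pass the test (limma, adjusted p = 0.401). *Bmp7*, the ligand with the highest mean over the 10 libraries through PT4 alone, was at 0.425, 1.68 and 0 FPKM in AstroEGFR and at 1.58, 7.88, 0 and 40.2 FPKM in PT. The groups overlapped, the libraries of batch 3 were both listed at 0, and PT4 was the highest (difference 1.83, SE 1.17, limma adjusted p = 0.565, and 0.86 without PT4). *Bmp6* was at 0.401 to 13.2 FPKM in AstroEGFR and 0.0201 to 2.53 FPKM in PT, with the highest value of either group in batch 3. *Bmp3*, *Bmp5*, *Bmp8a* and *Bmp8b* did not exceed 0.166 FPKM in any library. A value of 0 is reported here as listed, since the matrix also lists genes that every cell uses near 0.

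None of the 7 receptors and co-receptors tested passed the threshold, and their differences ran from -0.68 to 0.58 on the log2 scale. *Bmpr1a*, the type I receptor for BMP2 and BMP4 and the most abundant receptor, was at 108, 66.7 and 50.3 FPKM in AstroEGFR and at 38.0, 64.1, 44.9 and 34.9 FPKM in PT. The PT values reached into the range of AstroEGFR (difference -0.68, SE 0.34, limma adjusted p = 0.437, and -0.38 without AstroEGFR_1). *Bmpr2*, the type II receptor specific to BMPs, was at 19.8 to 28.3 FPKM and 12.01 to 23.4 FPKM, and *Acvr1*, a type I receptor, at 14.8 to 50.7 FPKM and 7.38 to 46.1 FPKM. *Acvr2b*, a type II receptor shared with activins, was at 0.427, 1.02 and 0.508 FPKM in AstroEGFR and at 1.04, 2.55, 1.09 and 1.36 FPKM in PT. Here PT lay above AstroEGFR in all libraries, by as little as 1.02 against 1.04 FPKM, and the difference was 0.58 (SE 0.36, limma adjusted p = 0.55). *Acvr2a* was at 4.31 to 7.48 FPKM in AstroEGFR and 5.97 to 11.5 FPKM in PT. The BMP co-receptors *Rgma* and *Rgmb* were at 14.0 to 24.7 and 8.77 to 12.7 FPKM in AstroEGFR and at 6.45 to 44.8 and 5.33 to 19.0 FPKM in PT, with PT2 the lowest library for each. *Bmpr1b* stayed at or below 1.26 FPKM in both groups. *Acvrl1* and *Eng*, known for their role in vessels, stayed at or below 2.04 and 1.44 FPKM.

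Of the SMADs, *Smad4*, the common partner, was at 39.2, 36.3 and 36.9 FPKM in AstroEGFR and at 37.6, 49.4, 50.1 and 32.1 FPKM in PT. The groups overlapped, and the difference was 0.15 (SE 0.24, limma adjusted p = 0.849). The receptor SMADs *Smad1* and *Smad5* were at 17.4 to 18.6 and 24.9 to 43.6 FPKM in AstroEGFR and at 13.2 to 26.5 and 28.1 to 46.6 FPKM in PT, with differences of 0.03 (SE 0.28) and 0.15 (SE 0.28). The third receptor SMAD, *Smad9*, was at 5.47, 1.40 and 1.53 FPKM in AstroEGFR and at 0.326, 0.163, 0.0673 and 0.617 FPKM in PT. It was lower in all PT libraries, and the difference of -1.41 (SE 0.46) did not pass (limma adjusted p = 0.227).

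*Smad6*, whose product blocks BMP receptor SMADs in particular, had the largest fall of all members. It was listed at 26.3, 14.4 and 16.8 FPKM in AstroEGFR and, from PT1 to PT4, at 0.25, 0.621, 0 and 0.394 FPKM. The groups did not overlap, and the mean of AstroEGFR was 60.7-fold that of PT. The change on the log2 scale was -3.92 (SE 0.32, limma, Benjamini-Hochberg adjusted p = 0.00483), from 4.29 ± 0.43 (SD, n = 3) to 0.37 ± 0.29 (SD, n = 4). *Smad7*, whose product inhibits both BMP and TGF-beta receptors, was at 16.9, 14.3 and 9.98 FPKM in AstroEGFR and at 2.45, 1.43, 2.46 and 2.21 FPKM in PT. The highest PT library was below the lowest AstroEGFR library (change -2.21, SE 0.28, limma adjusted p = 0.0156). Without AstroEGFR_1 neither passed, with adjusted p-values of 0.0516 and 0.101 for *Smad6* and *Smad7*, and *Smad7* was also lost without AstroEGFR_2 (0.0514) or PT4 (0.0571). The sum of the fibroblast markers was lower in 3 of the 4 PT than in any AstroEGFR library. Of these markers, *Pdgfra* was higher in PT4 (41.9 FPKM) than in AstroEGFR (1.48 to 5.67 FPKM), and *Lum* was higher in PT1 (1.56 FPKM) than in AstroEGFR_1 (1.21 FPKM). The part of the fibroblast markers in these results was not tested.

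Of the 9 modulators tested, 8 had a lower mean in PT, as did 47.9% of all features, and 0 passed the threshold. *Fstl1*, a secreted follistatin-like protein reported to antagonize BMP4, was the most abundant member of all, at 454, 506 and 1136 FPKM in AstroEGFR and at 110, 47.6, 301 and 96.4 FPKM in PT. All PT libraries were lower (difference -2.51, SE 0.63, limma adjusted p = 0.128). *Fst*, the follistatin gene, was at 5.39, 3.39 and 21.9 FPKM in AstroEGFR and at 0.194, 0.663, 1.20 and 0.296 FPKM in PT (difference -2.49, SE 0.58, limma adjusted p = 0.107). For both genes the highest library of each group belonged to batch 3. When each PT was set against the batch it came from, as a replicate block in the fit, *Fstl1* (-2.44, SE 0.31, limma adjusted p = 0.0273) and *Fst* (-2.38, SE 0.40, limma adjusted p = 0.0432) passed as well, which made 5 members lower and 0 higher. That fit called 2.68% of all features lower and 1.19% higher, or 475 features in place of 152. A block by the numbers in the library names alone, which leaves PT4 without a partner, called 0 members. *Fstl3* was at 1.51, 1.49 and 4.09 FPKM in AstroEGFR and at 0.133, 0.0302, 0 and 0.154 FPKM in PT (difference -1.56, SE 0.40, limma adjusted p = 0.131). *Bambi*, a pseudoreceptor without a kinase domain that is itself a BMP target, was at 4.98, 9.75 and 4.26 FPKM in AstroEGFR and at 2.99, 1.72, 1.39 and 2.38 FPKM in PT (difference -1.19, SE 0.35, limma adjusted p = 0.186). The AstroEGFR sums of the fibroblast markers, like *Fst* and *Fstl1*, were highest in batch 3, and the part of these cells in the values was not tested.

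The other modulators overlapped between the groups. *Twsg1*, which forms a complex with BMPs and chordin, was at 41.6 to 67.0 FPKM in AstroEGFR and 25.3 to 50.4 FPKM in PT. *Grem1* was at 0.318 to 4.23 FPKM in AstroEGFR and 0 to 0.819 FPKM in PT, and *Bmper* at 1.79 to 23.0 and 0.875 to 7.43 FPKM. *Chrd*, the chordin gene, had a higher mean in PT (2.24 to 4.68 FPKM against 0.734 to 3.01 FPKM), and its relative *Chrdl1* spanned 2.22 to 17.2 FPKM in AstroEGFR and 0.935 to 7.98 FPKM in PT. *Nog*, the noggin gene, stayed at or below 0.647 FPKM.

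**Figure D2:**
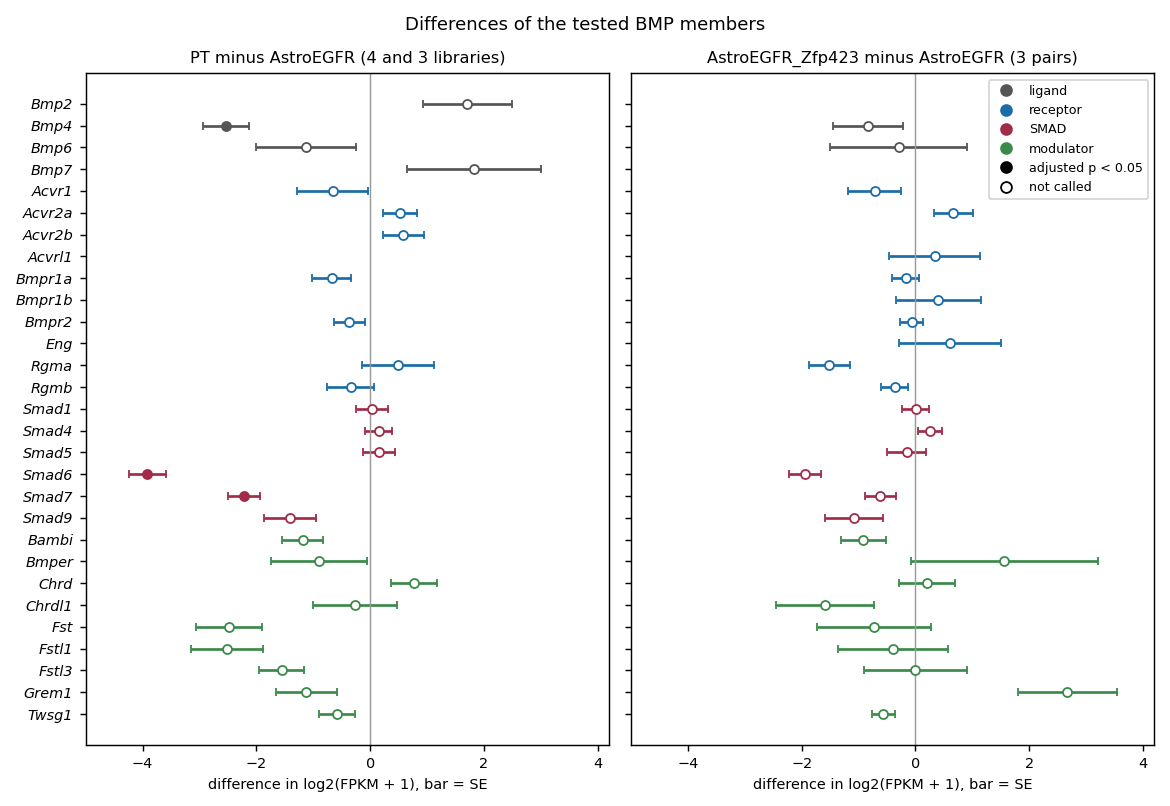
Difference on the log2(FPKM + 1) scale for each member tested, with its SE as a bar, for PT minus AstroEGFR (left) and AstroEGFR_Zfp423 minus AstroEGFR (right), coloured by role and filled where the limma adjusted p was below 0.05. On the left *Smad6* (-3.92), *Smad7* (-2.21) and *Bmp4* (-2.53) are filled, and on the right none is.

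Target genes of the pathway were read from a list of 14 genes, of which 12 passed the filter, *Atoh8* and *Msx2* through AstroEGFR, since their means in PT were below 1 FPKM. All 12 had a lower mean in PT (47.9% of all features), 6 had an unadjusted p below 0.05 (13.6% of all features), 1 passed the threshold, and the median difference was -1.20. This list and the lists below were chosen with earlier results of these data known, so their counts are a description. The gene that passed was *Atoh8*, a transcription factor gene that responds to BMP signals in several cell types. It was at 91.7, 27.4 and 9.61 FPKM in AstroEGFR and at 0.923, 0, 0.054 and 0.634 FPKM in PT, and the groups did not overlap (change -4.49, SE 0.69, limma adjusted p = 0.0285, below 0.05 in 6 of 16 alternatives and 0.0684 with no filter). Of the *Id* genes, which encode inhibitors of basic helix-loop-helix factors, *Id3* was at 714, 491 and 309 FPKM in AstroEGFR and at 148, 51.8, 75.0 and 201 FPKM in PT, and *Id4* at 92.5, 41.0 and 7.95 FPKM and at 2.86, 0.55, 1.04 and 5.82 FPKM. Neither overlapped between the groups, and neither passed (differences -2.19 and -3.44, each with a limma adjusted p = 0.116). With the replicate block by astrocyte batch both passed (*Id3* -2.39, SE 0.30, limma adjusted p = 0.0261, and *Id4* -3.74, SE 0.52, limma adjusted p = 0.03), and 4 target genes were called lower, where 2.68% of all features were, the others being *Atoh8* and *Runx2*. With the block by the numbers in the names 0 were called. *Id1* was at 70.5 to 256 FPKM in AstroEGFR and 15.1 to 66.6 FPKM in PT (limma adjusted p = 0.337). *Id2* was at 35.4 to 212 FPKM and 72.9 to 137 FPKM, with a difference of -0.12 (SE 0.59), which was 0.39 without AstroEGFR_1, 0.14 without AstroEGFR_2, 0.01 without PT2 and -0.88 without AstroEGFR_3.

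The remaining genes around the pathway gave no call in this comparison without a block, and with the block by astrocyte batch *Tgfb3*, *Crim1*, *Nbl1* and *Ski* were called lower (2.68% of all features). The counts at an unadjusted p below 0.05 that follow stand against 13.6% of all features. Among 16 other ligands of the BMP family, 8 were tested, 5 with a higher and 3 with a lower mean in PT (median 0.29). The 1 with an unadjusted p below 0.05, *Inhba*, had a PT mean below 1 FPKM and passed the filter through AstroEGFR, and *Gdf1* and *Gdf10* likewise passed through 1 group. Of 10 genes of the activin and TGF-beta arm, 9 were tested, 3 with a higher and 6 with a lower mean (median -0.16), with 3 at an unadjusted p below 0.05. Only 4 of 16 further extracellular modulators were tested, all with a lower mean (median -0.97) and 2 at an unadjusted p below 0.05. Of 18 intracellular SMAD regulators, all of them tested, 6 had a higher and 12 a lower mean (median -0.15), and 4 had an unadjusted p below 0.05, *Zfp423* among them (difference -0.98, SE 0.38, limma adjusted p = 0.314).

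The second comparison asked what *Zfp423* overexpression changed in the pathway within each astrocyte batch. *Smad6* was 4.29-fold, 3.35-fold and 6.81-fold lower in the overexpressing library of batches 1, 2 and 3, *Rgma* was lower and *Grem1* higher in each, and *Bmper*, *Fst*, *Fstl1* and *Fstl3* had opposite signs between batches. Limma with the batch as a block called 0 of the 12366 features tested at an adjusted p below 0.05 (0%), and 913 (7.38%) had an unadjusted p below 0.05. No member could therefore be called, and an exact sign-flip test of 1 gene over 3 pairs cannot give a p below 0.25. Of the 26 members tested, 4 (15.4%) had an unadjusted p below 0.05, *Smad6*, *Rgma* and *Twsg1* with lower and *Grem1* with higher values. *Acvr2b*, *Bmp2*, *Bmp3*, *Bmp5*, *Bmp7*, *Bmp8a*, *Bmp8b* and *Nog* did not pass the filter, and 4 that did (*Acvrl1*, *Bmpr1b*, *Eng* and *Smad9*) had a mean below 1 FPKM in 1 of the groups. Of the tested members 7 were lower in all 3 pairs (26.9%, against 15.2% of all features) and 3 higher in all 3 pairs (11.5%, against 16.3%). The median difference was -0.24 over the members and 0.02 over all features. A difference of at least 1 on the log2 scale in all 3 pairs was found in 1 member, lower, and in 0 members, higher, where 0.809% and 0.412% of all features had one.

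**Figure D3:**
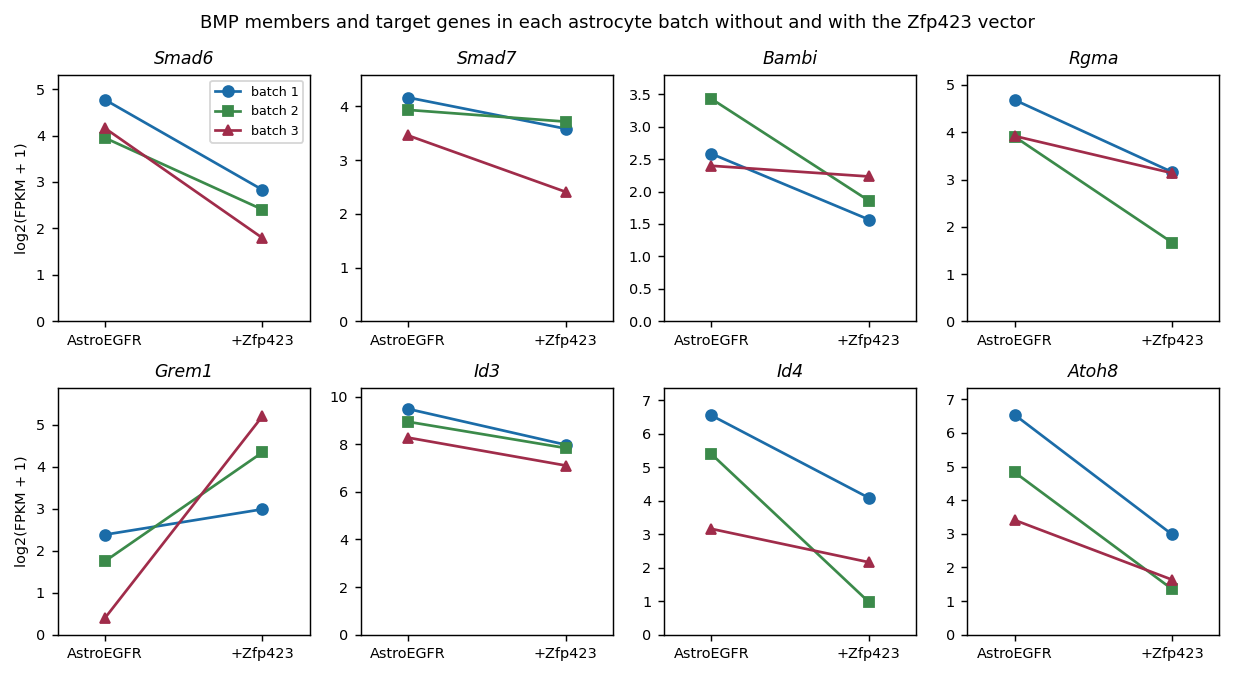
Level on the log2(FPKM + 1) scale in AstroEGFR and in the same batch with the *Zfp423* vector, with a line for each of the 3 batches, for 5 BMP pathway members and the target genes *Id3*, *Id4* and *Atoh8*. All lines slope down except those of *Grem1*, which slope up, and the differences of *Smad6* run from -1.54 to -2.36.

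The member lower by at least 1 in all pairs was *Smad6*. It was listed at 6.12, 4.31 and 2.47 FPKM in the AstroEGFR_Zfp423 libraries of batches 1, 2 and 3, against 26.3, 14.4 and 16.8 FPKM without the vector. These libraries lay between AstroEGFR and PT without touching either range, and both comparisons share the AstroEGFR libraries. The share of all features with such an order was not determined. Nor was the share without overlap between AstroEGFR_Zfp423 and AstroEGFR, so this order and the gaps given below for other genes are a description. The differences within batches were -1.94, -1.54 and -2.36 (mean -1.95, SE 0.28, limma adjusted p = 0.628). *Smad7* was at 11.0, 12.1 and 4.31 FPKM with the vector, lower in each pair by smaller amounts (mean -0.62, SE 0.28, limma adjusted p = 0.641), and *Smad9* at 0.635, 0.741 and 0.466 FPKM, below all AstroEGFR libraries. Of the signal-carrying SMADs, *Smad4* was at 40.4, 48.9 and 45.2 FPKM (0.25, SE 0.21), *Smad1* at 15.4 to 22.1 FPKM and *Smad5* at 22.9 to 39.9 FPKM. The microglia markers summed to 1126 and 605 FPKM in the *Zfp423* libraries of batches 1 and 2, and their part in these results was not tested. In batch 3 they summed to 2.17 FPKM without the vector and 0.101 FPKM with it, while the fibroblast markers went from 5201 to 235 FPKM. The share of small RNA and histone genes was higher with the vector in all 3 batches (35.4% against 0.315%, 35.9% against 29.6% and 54.8% against 4.84%), and its part in the values of *Smad6*, the other members and the target genes was not tested.

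*Rgma*, a co-receptor that enhances BMP signalling and also guides axons, was at 7.92, 2.18 and 7.79 FPKM with the vector, against 24.7, 14.0 and 14.1 FPKM without it. The groups did not overlap (differences -1.52, -2.24 and -0.78, mean -1.51, SE 0.37, limma adjusted p = 0.628). Of the other receptors, *Bmpr1a* was at 79.4, 56.1 and 56.4 FPKM (difference -0.17, SE 0.24), *Bmpr2* at 17.3 to 27.4 FPKM, and *Rgmb* at 6.93 to 10.9 FPKM with lower values in each pair. *Acvr2a* was higher in each pair, at 7.75, 13.7 and 7.73 FPKM.

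*Grem1*, whose product gremlin traps BMP2, BMP4 and BMP7, was at 4.23, 2.37 and 0.318 FPKM without the vector and at 6.95, 19.4 and 36.0 FPKM with it in batches 1, 2 and 3. All libraries with the vector were above all those without it, and the differences of 0.61, 2.59 and 4.81 were very unequal (mean 2.67, SE 0.87, limma adjusted p = 0.628). The mean ran from 1.60 to 3.70 when a library or pair was left out. *Twsg1* was at 44.9, 39.9 and 26.5 FPKM with the vector, lower by similar amounts in each pair (-0.57, -0.49 and -0.63), and *Bambi* at 1.97, 2.63 and 3.70 FPKM, below all AstroEGFR libraries.

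Other modulators and *Bmp4* split by batch. The pairs rest on the library names. Over the features tested in the first comparison, deviations from the group means correlated at -0.108 and -0.296 within the pairs of batches 2 and 3. *Fstl1* was at 779, 1026 and 142 FPKM with the vector, higher than its partner in batches 1 and 2 (0.78 and 1.02) and lower in batch 3 (-2.99). *Bmper*, which encodes a BMP-binding regulator of endothelial cells, had differences of 3.85, 3.99 and -3.15, and *Fst* of 0.91, 0.44 and -3.54. *Fstl3* (0.21, 2.01 and -2.22), *Bmp6* (2.15, 0.43 and -3.47), *Acvrl1* (1.22, 1.39 and -1.60), *Eng* (2.80, 0.25 and -1.23), *Bmpr1b* (0.20, 1.98 and -0.99) and *Chrd* (0.65, 0.70 and -0.73) had the same signs. Of these 9, *Acvrl1*, *Bmpr1b* and *Eng* passed the filter through the libraries with the vector, since their AstroEGFR means were below 1 FPKM, so the 9 are a description (17.3% of all features had these signs). The sum of the fibroblast markers had these signs too. It was higher with the vector in batches 1 and 2 (4567 against 337 FPKM and 6314 against 533 FPKM) and lower in batch 3 (235 against 5201 FPKM). Not every marker did so. *Lum* was lower with the vector in batches 1 and 2 as well (1.04 against 1.21 FPKM and 0.0196 against 4.02 FPKM). *Pdgfra* was lower in batch 2 (2.05 against 3.36 FPKM). The part of these cells, and of the microglia markers that were high in the same libraries, was not tested. *Chrdl1* differed by 0.16, -3.77 and -1.16 (mean -1.59, SE 0.86), at 17.2 FPKM without and 0.327 FPKM with the vector in batch 2. *Bmp4* was at 12.6, 2.08 and 0.301 FPKM with the vector, with differences of 0.30, -0.43 and -2.36.

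**Figure D4:**
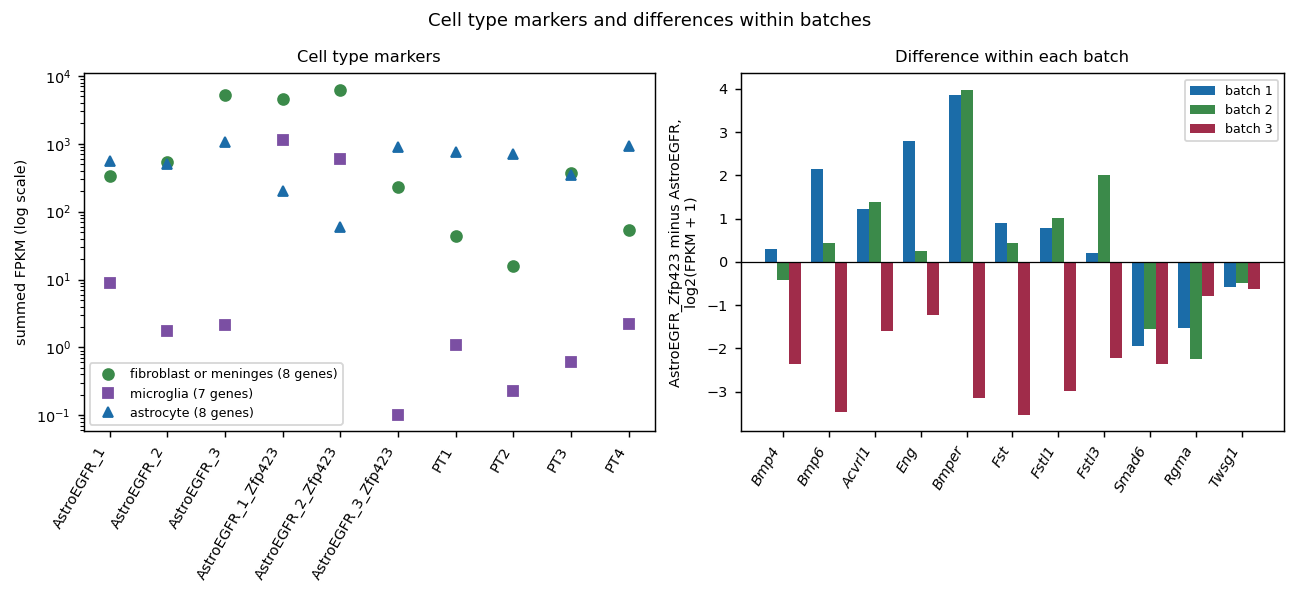
Left, summed FPKM on a log axis of the fibroblast or meninges, microglia and astrocyte markers in each library. Right, difference on the log2(FPKM + 1) scale between the libraries with and without the *Zfp423* vector in each of the 3 batches for 11 members. *Bmp6* to *Fstl3* have positive bars in batches 1 and 2 and negative bars in batch 3, as do the fibroblast sums, while *Smad6*, *Rgma* and *Twsg1* are negative in all 3.

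Of the target genes, all 12 tested had a lower mean with the vector (48.3% of all features), 5 were lower in all 3 pairs (15.2% of all features), and 4 had an unadjusted p below 0.05 (7.38% of all features). None passed the threshold in limma, and the median was -1.15. In batches 1, 2 and 3 the astrocyte markers summed to 199, 59.4 and 904 FPKM with the vector, against 552, 509 and 1048 FPKM without it. *S100b* in batch 1 and *Aldh1l1*, *Gja1* and *Aldoc* in batch 3 went the other way. The part of these markers, and of the microglia markers, in the target genes was not tested. *Id3* was at 251, 228 and 137 FPKM with the vector, lower in each pair and below all AstroEGFR libraries (-1.26, SE 0.31, limma adjusted p = 0.628). *Id1* was at 38.0, 15.7 and 63.9 FPKM (-1.92, SE 0.65), and *Id2* at 64.5, 75.4 and 39.2 FPKM (-0.84, SE 0.42, with 0.14 in batch 3, -0.41 without batch 1 and -1.33 without batch 3). *Id4* was at 16.0, 0.967 and 3.49 FPKM (-2.62, SE 0.72, with -1.73 without batch 2 and -3.44 without batch 3). *Atoh8* was at 6.89, 1.56 and 2.11 FPKM, below all AstroEGFR libraries (-2.93, SE 0.46, limma adjusted p = 0.628). No gene of the other lists passed. Of the other BMP-family ligands 7 were tested, 2 with a higher and 5 with a lower mean (median -0.19). Of the activin and TGF-beta arm 9 were tested, 4 higher and 5 lower (median -0.03), and of the further extracellular modulators 6, 2 higher and 4 lower (median -0.08). The 18 intracellular SMAD regulators had 13 higher and 5 lower means (median 0.17), counting *Zfp423* itself, which the vector supplied (2.52, SE 0.74, limma adjusted p = 0.628).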

How the data were processed

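RNAseq of 10 libraries was used, 1 per culture (3 AstroEGFR, 4 PT, 3 AstroEGFR_Zfp423). The authors deposited 1 matrix of FPKM values by gene symbol, made with TopHat 1.3 and Cuffnorm on mm9 according to the submitters' processing notes. The labels name a TruSeq RNA kit and the paper ribosomal RNA removal with stranded libraries. FPKM hold no counts, so depth and counting error are unknown.

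Features whose mean over the libraries compared reached 1 FPKM were fitted on the log2(FPKM + 1) scale in limma 3.58.1 (R 4.3.3), by empirical Bayes with a trend, with Benjamini-Hochberg adjustment over all features tested and a threshold of 0.05. PT were compared with AstroEGFR without a block, and AstroEGFR_Zfp423 with the astrocyte batch as a block. Same-batch AstroEGFR and PT deviated together (correlations 0.347 to 0.500, all other pairs negative), and the batch of each PT is that given by the study. Libraries of AstroEGFR and AstroEGFR_Zfp423 share a batch by their names, but did not deviate together in batches 2 and 3 (same-batch correlations 0.251, -0.108 and -0.296 in batches 1 to 3, other pairs -0.258 to 0.326, the highest being AstroEGFR_3 with AstroEGFR_2_Zfp423). P-values measure the spread between these libraries, part of which may be technical. PT1 and PT4 correlated at 0.951 and were not identical.

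Levels in every library are given for members called, not overlapping between PT and AstroEGFR, differing by at least 1 in all 3 *Zfp423* pairs, most abundant in their role, or most changed. Others named with values were chosen after these were seen. Members and lists were chosen with earlier results of these data known. Alternatives were no filter, a pseudocount of 0.1, median-ratio scaling, no trend, all 10 libraries in 1 fit, other blocks, PT1 and PT4 averaged, and libraries left out. The fit was tested on simulated data, where signs and sizes were recovered in both designs, but in the *Zfp423* design changes were called only when far larger than those called in the PT design. Python 3.11.15 with pandas 2.3.3 and matplotlib 3.10.9 was used for summaries and figures.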

Additional observations from a re-analysis of the deposited data

Results flagged for a closer look

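*Chrdl1*, a chordin-like BMP antagonist, was at 0.935 FPKM in PT3, far from the other PT libraries, at 7.98, 6.61 and 7.37 FPKM in PT1, PT2 and PT4. The gap to the nearest of them was 0.892 of the range of the 4 libraries on the log2 scale, above Dixon's critical value for 4 samples. It was 1 of 26 members checked in this way, and chance marks about 1 in 20. PT3 was also 1 of the libraries with the highest smallest values above 0.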

How the results depend on the processing

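Between PT and AstroEGFR, 152 features passed. The number was 82 with all 10 libraries in 1 fit, 475 with a replicate block by astrocyte batch, 16 with a replicate block by the numbers in the names, 59 with PT1 and PT4 averaged, 8 with AstroEGFR_3 and PT3 both left out (chosen after seeing the data), and 7 to 123 with 1 library left out, 7 being without AstroEGFR_1. In the same order, the members called were 2, 5, 0, 1, 0 and 0 to 2 instead of 3, with 0 without AstroEGFR_1 and 1 without PT4. *Smad6* lost its call in 3 of 16 alternatives (adjusted p 0.00334 to 0.0789) and *Smad7* in 6 of 16 (0.0149 to 0.101), each keeping its sign. With *Zfp423*, 0 features passed, 2 with no replicate block, and 0 to 60 with 1 library or pair left out (47 without AstroEGFR_2, 60 without AstroEGFR_2_Zfp423 and 51 without both), and 0 members in all 15 alternatives. *Fstl1* with *Zfp423* turned from -0.40 to 0.90 without either or both of the batch 3 libraries, and the lowest value with a library left out was -1.11. The cause of these shifts was not tested. Beyond the calls given here and beside the results, blocks changed none among the members and lists. FPKM give no depth, which limits statements on values near 0.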
